A study of Gallus gallus with 10 samples.

Results

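Transcripts of the mitochondrial ribosomal proteins were examined in cranial neural folds of chick embryos, the dorsal head tissue from which the cranial neural crest arises. Members were the genes whose symbol consists of MRPL or MRPS, a number and at most 1 further letter, and they numbered 72 of the 19168 genes in the deposited expression table. Of these, 45 carried an MRPL symbol and 27 an MRPS symbol. The symbol came from the Ensembl annotation for 69 members and from the protein database for MRPL2, MRPL30 and MRPL55. By textbook assignment 47 encode large-subunit proteins, which include MRPS18A and MRPS30 in spite of their names, and 24 encode small-subunit proteins. MRPS36 was left without a subunit, because in mammals and yeast its protein is now placed in the 2-oxoglutarate dehydrogenase complex.

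The mitochondrial ribosome makes the few proteins encoded by the mitochondrial genome, all of them parts of the respiratory chain and the ATP synthase. Its ribosomal RNAs are transcribed inside the organelle, whereas its proteins are encoded in the nucleus, made in the cytosol and imported. Some of these proteins descend from bacterial ribosomal proteins and line the decoding centre, the peptidyl transferase centre and the exit tunnel, while others have no bacterial counterpart and were added during mitochondrial evolution.

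The study asked how a morpholino against NSD3, a SET domain histone methyltransferase, altered RNA levels in this tissue. A morpholino is a synthetic antisense oligomer that binds a chosen RNA and hinders its splicing or its translation. Both sides of embryos at Hamburger-Hamilton stages 4 to 5 were electroporated with 0.5 mM of either the control morpholino, written mmMO in the labels, or the NSD3 morpholino. All embryos also received the carrier plasmid pCS2+myc at 300 ng/µL, and folds were collected at 5 to 7 somites. Each of the 2 groups had 5 libraries, and each library was a separate pool of 12 embryos from the 60 embryos collected for the condition. Strain, sex and the share of cells that took up the morpholino were not given in the sources used here.

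Levels were deposited as FPKM, which divides the fragments of a gene by its length and by a measure of library size. They are comparable between genes per unit of length. Rescaling the deposited values by median ratios changed neither the 179 higher nor the 122 lower calls over all genes. Relative depth, read from the step that 1 read makes in FPKM, ran from 0.887 to 1.295 times the geometric mean of the libraries. NSD3 itself had means of 22.9 ± 2.29 FPKM (SD, n = 5) in the control pools and 17.9 ± 1.36 FPKM (n = 5) in the NSD3 pools, without overlap (two-sided exact permutation test over 252 arrangements, p = 0.00794, the smallest this design allows). The limma estimate was -0.34 on the log2 scale (adjusted p = 0.055). The authors' deposited table of differentially expressed genes gives NSD3 a log2 fold change of -0.35 (adjusted p = 0.00439). The summed level of 12 neural fold markers was 1506 to 2521 FPKM in controls and 1240 to 1618 FPKM in NSD3 pools. ZIC1 and SOX9 fell among them (limma adjusted p = 0.0151 and 0.0333). The call of ZIC1 held in all 20 alternatives that were run, and that of SOX9 ended in 11 (adjusted p up to 0.0852), among them the omission of control replicates 1, 2, 4 or 5 or of NSD3 replicates 1, 2 or 4. Mesoderm and head mesenchyme markers, of which 6 of 10 averaged under 1 FPKM, summed to 17.8 to 23.6 FPKM in controls and 25.5 to 38.5 FPKM in NSD3 pools, and FOXC2 rose (limma adjusted p = 0.0222). That call ended in 7 alternatives (adjusted p up to 0.0839), including the omission of control replicates 1 or 2 or of NSD3 replicates 1 to 4. Summed markers of blood and endothelium (12.8 to 22.7 against 12.0 to 19.7 FPKM), endoderm (35 to 48.2 against 34.2 to 46.2 FPKM), notochord (22.2 to 32.8 against 18.6 to 25.8 FPKM) and non-neural ectoderm (288 to 358 against 344 to 397 FPKM) overlapped between groups. In the same order, 5 of 9, 6 of 8, 2 of 5 and 2 of 9 measured markers averaged under 1 FPKM, and none was at 0 in every library. Only 4, 2, 3 and 7 were tested, and none was called, where 2.52% of all genes were. At an unadjusted limma p under 0.05 there were 2, 0, 1 and 2, against 18.1% of all genes. So few tested markers cannot show that these cell types were unchanged. The part of cell composition in the results on ribosomal proteins was not tested, and in pooled tissue a change in the number of cells of a type and a change in RNA per cell cannot be told apart.

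Members were expressed together but at very unequal levels. Mean FPKM over the 10 libraries was under 1 for 1 member, from 1 to under 10 for 9, from 10 to under 50 for 37, from 50 to under 100 for 17, and at least 100 for 8. The median member stood at 35.4 FPKM, against 11.9 FPKM for all 11935 genes tested, 58.4 FPKM for 72 nuclear genes of oxidative phosphorylation and 336 FPKM for 65 cytosolic ribosomal proteins. Large-subunit members had a median of 40.3 FPKM and small-subunit members one of 31.7 FPKM. On the FPKM scale the highest tested member, MRPL17, stood 95.9 times above the lowest, MRPS36, and 49 times above MRPL4, the lowest tested member with an assigned subunit. MRPL4 rests on 41 to 83 reads per library and had no entry in the RefSeq annotation of a later assembly, so its level is uncertain.

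The 5 highest members were MRPL17, MRPL12, MRPL24, MRPS12 and MRPL51. MRPL17, a homolog of bacterial L17, had means of 143 ± 21.6 FPKM in the control pools and 139 ± 12.7 FPKM in the NSD3 pools (SD, n = 5 each). MRPL12, the counterpart of the bacterial L7/L12 stalk protein that engages translation factors, averaged 123 ± 20.6 and 121 ± 8.73 FPKM. The ranges of these 2 members overlapped in both groups, in NSD3 pools at 124 to 155 against 107 to 130 FPKM.

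MRPL24, whose bacterial homolog sits at the exit of the peptide tunnel, had means of 117 ± 8.09 FPKM in the control pools and 126 ± 9.08 FPKM in the NSD3 pools. MRPS12, the homolog of the decoding-centre protein S12, averaged 117 ± 14.4 and 119 ± 5.99 FPKM. MRPL51, a large-subunit protein without a bacterial counterpart, averaged 104 ± 5.42 and 102 ± 6.09 FPKM. MRPL12, MRPL24 and MRPS12 overlapped each other in both groups, whereas in NSD3 pools MRPL51, at 95.6 to 109 FPKM, lay wholly below MRPS12, at 110 to 126 FPKM. Differences between the groups were within 0.12 of zero on the log2 scale for all 5, and the smallest limma adjusted p among them was 0.392, for MRPL24.

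At the other end stood MRPL54, MRPS36, MRPL4, MRPL21 and MRPL42. MRPL54, a large-subunit protein, was represented by 0 to 3 reads per library and averaged 0.223 ± 0.0769 and 0.219 ± 0.144 FPKM. It was the only member below the filter of 1 FPKM and was not tested, which left 71. MRPS36 had means of 1.33 ± 0.303 FPKM in the control pools and 1.6 ± 0.291 FPKM in the NSD3 pools, and MRPL21, a homolog of bacterial L21, averaged 3.55 ± 0.442 and 3.97 ± 0.564 FPKM. Their log2 fold changes were 0.21 (95% interval -0.14 to 0.56) and 0.14 (-0.12 to 0.40). Reads limited few of the members: 65 had over 100 reads in every library, and the 7 others were MRPL4, MRPL20, MRPL21, MRPL42, MRPL54, MRPS18C and MRPS36.

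**Figure D1:**
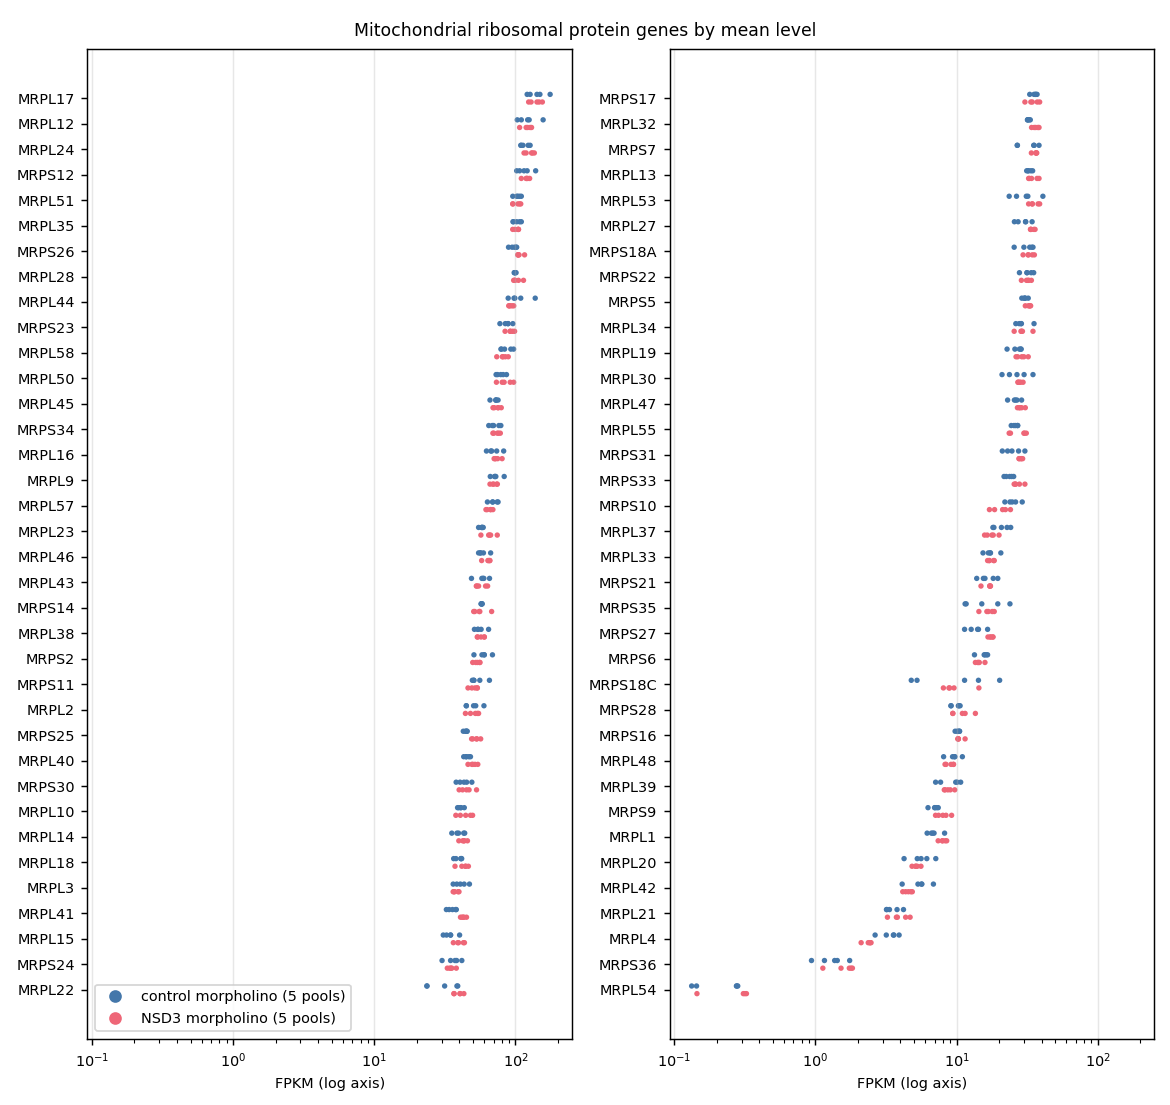
FPKM of each mitochondrial ribosomal protein transcript in each of the 10 pools on a log axis, with members ordered by their mean, coloured by morpholino. Most members lie between 10 and 100 FPKM and the spread between pools is small beside the spread between members; the single 0, MRPL54 in NSD3 morpholino replicate 2, cannot be drawn on this axis.

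No member was called different between the groups by the limma fit used here, while the authors' own list of differentially expressed genes holds MRPS27. With limma on log2(FPKM + 0.5) and Benjamini-Hochberg adjustment over all genes tested, 0 of 71 members had an adjusted p under 0.05, where 2.52% of all genes did (1.5% higher and 1.02% lower). At an unadjusted p under 0.05 there were 15 members, or 21.1%, of which 12 were higher and 3 lower with the NSD3 morpholino (9.78% and 8.29% of all genes). The same count over all genes was 18.1%, so the share of members was near the background.

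Members leaned towards slightly higher values. Their median log2 fold change was 0.063, with quartiles at -0.03 and 0.13, against -0.003 for all genes with quartiles at -0.13 and 0.12. It was above 0 for 47 of 71 members (66.2%) and for 49.4% of all genes. Most differences were small, with 58 of 71 within 0.2 of zero on the log2 scale and 3 beyond 0.3. With FPKM rescaled so that every library has the same total, the median fell to 0.017 while that of all genes moved to -0.047. Above 0 were then 37 of 71 members and 4770 of the 11935 genes tested without rescaling.

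Medians by subunit and by evolutionary origin of the proteins lay close together. Large-subunit members had a median log2 fold change of 0.063, with 30 of 46 above 0, and small-subunit members had one of 0.040, with 16 of 24 above 0. Members with a bacterial homolog stood at 0.047 (29 of 43 above 0) and mitochondria-specific members at 0.063 (17 of 27 above 0). With FPKM rescaled to the same total the 4 medians were 0.018, -0.005, 0.001 and 0.017 in the same order. These are descriptions, and the differences between classes were not tested. MRPS18A was counted as mitochondria-specific, although its symbol marks it as a paralog of MRPS18C, which was counted as having a bacterial homolog.

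**Figure D2:**
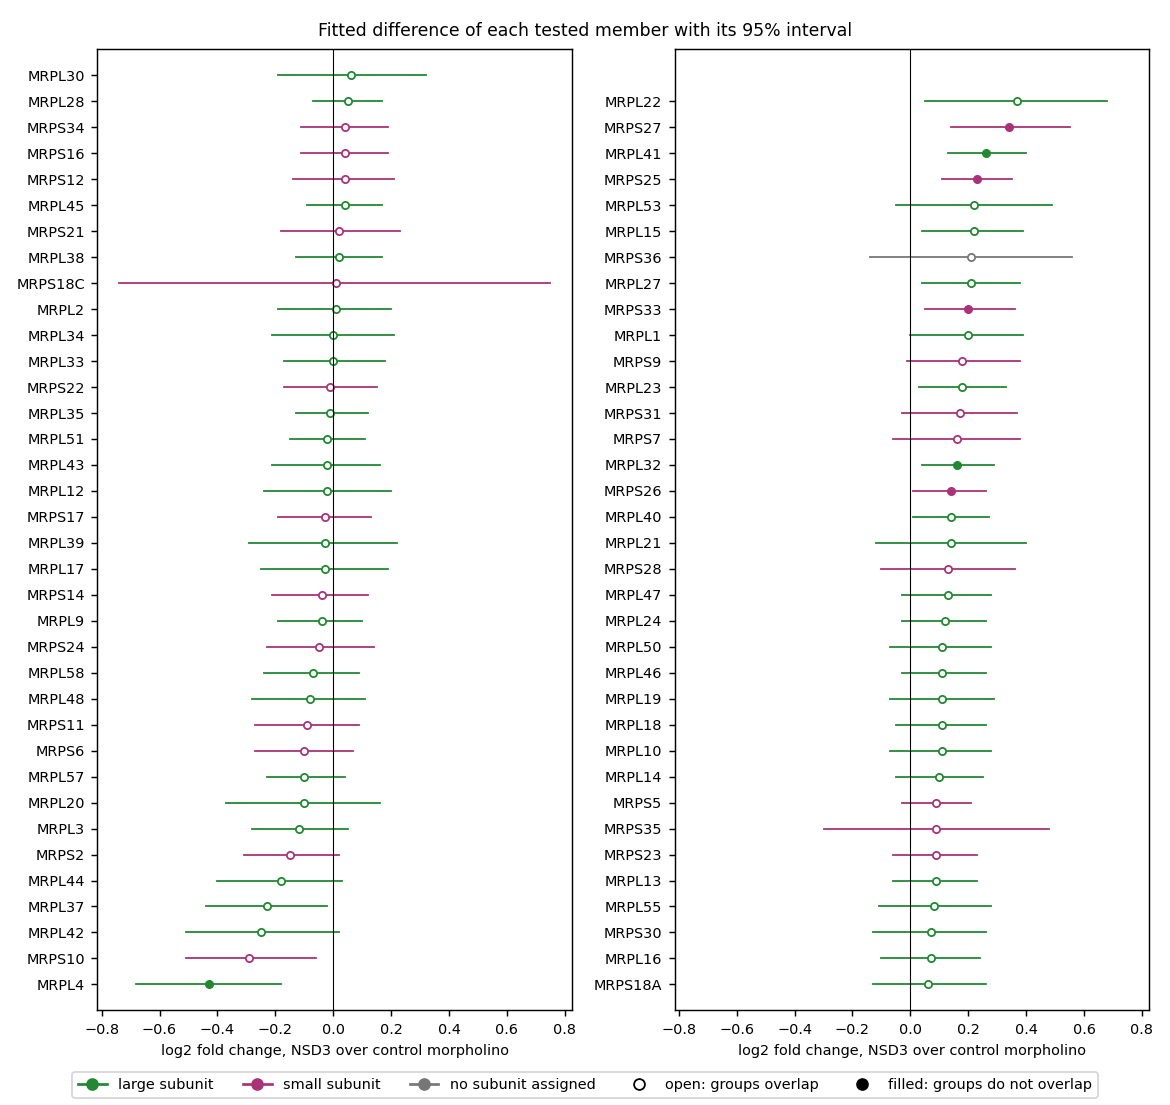
Fitted log2 fold change (NSD3 over control morpholino) of the 71 tested members with 95% intervals, coloured by subunit, with filled points where the groups do not overlap. Estimates run from -0.43 for MRPL4 to 0.37 for MRPL22, and most intervals include 0.

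The 5 pools of one group lay wholly on one side of the 5 of the other for 7 members (9.86%), where the share of all genes was 6.04%. Of these, 6 were higher with the NSD3 morpholino (3.68% of all genes were) and 1 was lower (2.36% of all genes). The 6 were MRPL41, MRPS25, MRPS27, MRPL32, MRPS33 and MRPS26. Of these, 4 belong to the small subunit, as do 24 of the 71 tested members. In the class called mitochondria-specific here were 5 of them, as were 27 of the 71. Whether the classes differ was not tested.

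MRPL41, a mitochondria-specific large-subunit protein that in human cells also binds BCL2, stood at 33.9, 38.1, 35.8, 32.4 and 37.7 FPKM in control replicates 1 to 5. With the NSD3 morpholino it stood at 40.8, 42.6, 41.9, 45.0 and 43.2 FPKM. All 5 NSD3 pools lay above the highest control, by a margin as narrow as 38.1 to 40.8 FPKM. Its log2 fold change of 0.26 (95% interval 0.13 to 0.40) came with a limma adjusted p of 0.0506, the smallest among members, and of 0.0446 to 0.131 over 20 alternatives.

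MRPS25, a small-subunit protein without a bacterial counterpart, had control values of 44.2, 42.7, 45.2, 45.5 and 44.8 FPKM and NSD3 values of 48.9, 56.7, 52.9, 53.3 and 49.8 FPKM. The controls were tight, with a coefficient of variation of 2.45%, and every NSD3 pool was above them. The log2 fold change was 0.23 (0.11 to 0.35), and the limma adjusted p was 0.056, with a range of 0.0497 to 0.15 over the alternatives. In the RefSeq annotation of a later assembly, GRCg7b, MRPS25 overlaps RBSN, which stood at 34.3 to 51.3 FPKM in controls and 41.2 to 44.1 FPKM in NSD3 pools, so its groups overlapped.

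MRPS27, a pentatricopeptide repeat protein of the small subunit, had control values of 12.7, 16.6, 14.3, 11.4 and 14.1 FPKM. Its NSD3 values were 17.3, 16.7, 17.5, 18.1 and 18.1 FPKM, so control replicate 2 at 16.6 came close to the lowest NSD3 pool at 16.7. The log2 fold change was 0.34 (0.14 to 0.55, limma adjusted p = 0.0775), and without control replicate 2 it was 0.41 (limma adjusted p = 0.042). MRPS27 was the only member in the authors' deposited table of 674 differentially expressed genes, or 3.52% of all rows. There its log2 fold change is 0.35, its adjusted p 0.0402 and its mean count 255. It overlaps PTCD2 in GRCg7b, which stood at 4.08 to 8.54 FPKM in controls and 5.66 to 10.5 FPKM in NSD3 pools.

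The other 3 had smaller differences. MRPL32, a homolog of bacterial L32 that the m-AAA protease matures in yeast and mouse, had means of 32.4 ± 0.642 FPKM in the control pools and 36.4 ± 1.74 FPKM in the NSD3 pools (log2 fold change 0.16, interval 0.04 to 0.29, limma adjusted p = 0.143). MRPS33 averaged 23.6 ± 1.5 and 27.2 ± 1.99 FPKM (0.20, interval 0.05 to 0.36, limma adjusted p = 0.161). MRPS26 averaged 97.1 ± 5.20 and 107 ± 5.11 FPKM (0.14, interval 0.01 to 0.26, limma adjusted p = 0.231). MRPS33 and MRPS26 are small-subunit proteins specific to mitochondria.

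MRPL15, a homolog of bacterial L15 and the sixth member by adjusted p among those with positive differences, had means of 34.6 ± 3.52 FPKM in the control pools and 40.2 ± 2.95 FPKM in the NSD3 pools. Control replicate 3, at 40.2 FPKM, stood above 3 of the NSD3 pools, at 36.3 to 39.5 FPKM. Its log2 fold change was 0.22 (interval 0.04 to 0.39, limma adjusted p = 0.179).

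**Figure D3:**
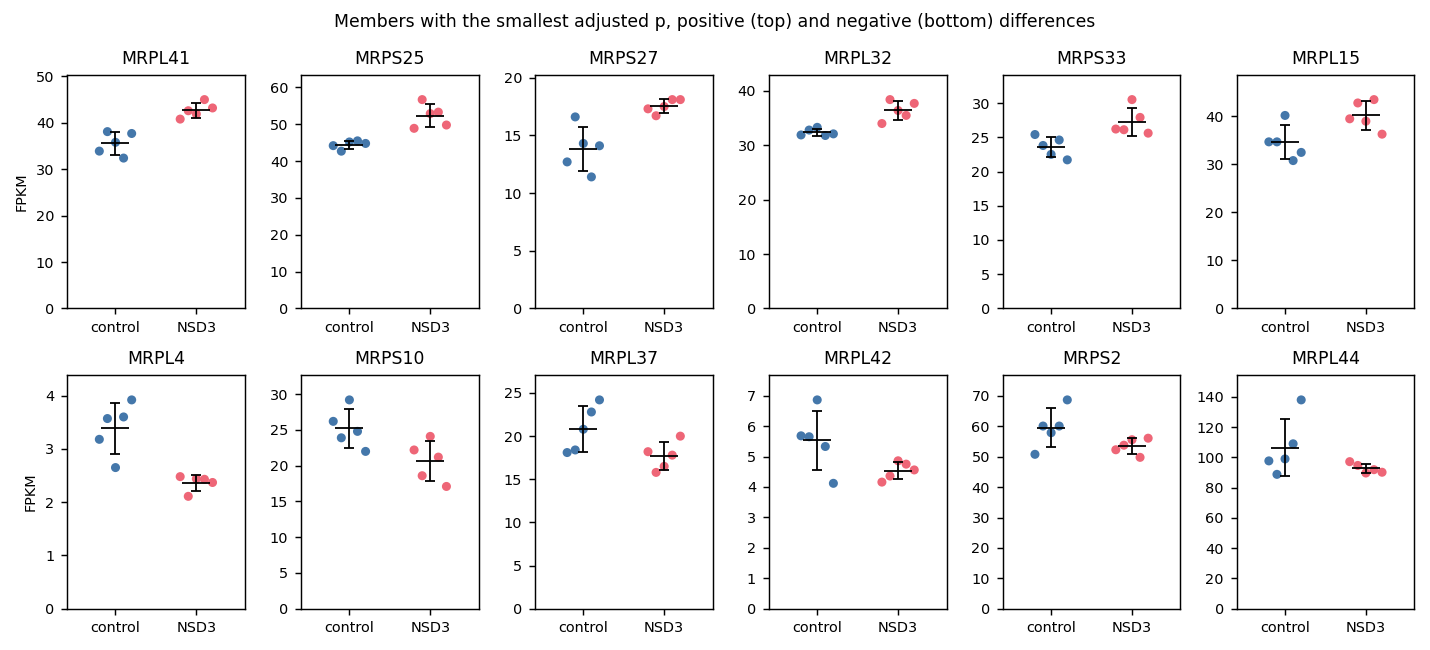
FPKM in each pool for the 6 members with the smallest adjusted p in each direction, with the group means and SD. In MRPL41, MRPS25, MRPS27, MRPL32 and MRPS33 all NSD3 pools lie above all control pools, and in MRPL4 all lie below.

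MRPL4 was the member with the most negative difference and the only one whose NSD3 pools all lay under the controls. It encodes the homolog of L4, which lines the peptide exit tunnel in bacteria. Control values were 3.18, 3.57, 2.65, 3.60 and 3.92 FPKM, and NSD3 values were 2.48, 2.11, 2.44, 2.43 and 2.37 FPKM. The gap between groups was narrow at control replicate 3, at 2.65 against 2.48 FPKM. The log2 fold change was -0.43 (-0.68 to -0.18), and the limma adjusted p was 0.0764, with a range of 0.0357 to 0.187 over the alternatives. The values rest on 41 to 83 reads per library, and the pseudocount makes the fold change of so low a gene an understatement.

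The other members with the smallest adjusted p among negative differences overlapped between groups. MRPS10, a homolog of bacterial S10, stood at 26.2, 23.9, 29.2, 24.8 and 22.0 FPKM in controls and at 22.2, 18.6, 24.1, 21.2 and 17.1 FPKM in NSD3 pools. Its lowest control lay among the NSD3 pools, and the log2 fold change was -0.29 (-0.51 to -0.06, limma adjusted p = 0.169). MRPL37, a mitochondria-specific large-subunit protein, averaged 20.9 ± 2.67 and 17.7 ± 1.62 FPKM, with a log2 fold change of -0.23 (-0.44 to -0.02, limma adjusted p = 0.244) that was -0.11 without control replicates 4 and 5. MRPL42, also mitochondria-specific, averaged 5.53 ± 0.981 and 4.54 ± 0.282 FPKM (-0.25, interval -0.51 to 0.02, limma adjusted p = 0.309).

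MRPS2, a homolog of bacterial S2, had means of 59.5 ± 6.43 FPKM in the control pools and 53.5 ± 2.58 FPKM in the NSD3 pools (-0.15, interval -0.31 to 0.02, limma adjusted p = 0.346). MRPL44, a large-subunit protein with an RNase III-like domain, stood at 97.7, 88.8, 99.0, 109 and 138 FPKM in controls and at 97.2, 94.7, 89.7, 91.9 and 90.2 FPKM in NSD3 pools. Its mean difference of -0.18 on the log2 scale (-0.40 to 0.03, limma adjusted p = 0.368) became -0.04 without control replicates 4 and 5. The low end of both groups was alike, and control replicate 5 alone reached 138 FPKM.

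Members varied more between control pools than between NSD3 pools. The median coefficient of variation was 9.83% in controls and 6.31% with the NSD3 morpholino, against 14.9% and 10.6% for all genes tested. In controls 36 of 71 members varied by under 10% and 5 by at least 20%. Control replicate 5 was the highest of the 10 pools for 22 members (31.0%), a place it held for 20.3% of all genes. Control replicate 4 was the lowest pool for 21 members (29.6%), against 14.2% of all genes.

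Pools within a group differed by amounts of the order of the lean between groups, whose median log2 fold change was 0.063. The median deviation of the members from their own means, on the log2 scale, was between -0.09 in control replicate 4 and 0.00 in control replicate 5 among controls. It was between -0.03 in replicate 1 and 0.08 in replicate 2 with the NSD3 morpholino. Summed over members, FPKM came to 3116, 3176, 3151, 3101 and 3386 in control replicates 1 to 5. With the NSD3 morpholino the sums were 3166, 3395, 3278, 3262 and 3246. The ranges overlapped through control replicate 5 and NSD3 replicate 1, while the other controls lay under the other NSD3 pools.

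Within control replicates 4 and 5, members deviated in both directions, as did genes at large. The labels do not set these pools apart from the other controls. Both of these pools lay under all 3 other controls for 18 of 71 members and above all 3 for 14, where the shares over all genes were 27.7% and 26.5%. Neither share of members exceeded that of all genes. MRPS18C, MRPS35 and MRPL22 had the largest coefficients of variation over controls, at 57.8%, 32.5% and 24.3%.

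MRPS18C, which encodes 1 of the 3 vertebrate paralogs of bacterial S18, stood at 14.3, 11.4, 20.2, 5.25 and 4.78 FPKM in controls and at 14.4, 8.84, 9.60, 8.93 and 8.07 FPKM in NSD3 pools. Control replicates 4 and 5 were under every NSD3 pool, and the remaining controls were above 4 of the 5. The log2 fold change of 0.01 had an interval from -0.74 to 0.75 (limma adjusted p = 0.994). Without those 2 controls it was -0.59 (limma adjusted p = 0.139). The gene had 36 to 146 reads per library, and in GRCg7b it overlaps HELQ and FAM175A, which stood at 4.22 to 5.84 and 26.4 to 31.2 FPKM in controls.

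MRPS35, a mitochondria-specific small-subunit protein, stood at 19.6, 15.1, 23.9, 11.7 and 11.5 FPKM in controls and at 17.9, 18.5, 16.4, 16.8 and 14.4 FPKM in NSD3 pools. Its controls spanned the whole range of the NSD3 pools on both sides, and the log2 fold change was 0.09 (-0.30 to 0.48, limma adjusted p = 0.842). Its sign turned without control replicates 4 and 5, to -0.19, and without either one of them. MRPL22, the homolog of the exit-tunnel protein L22, stood at 31.5, 38.5, 39.0, 23.6 and 23.6 FPKM in controls and at 36.6, 43.1, 40.6, 40.4 and 36.8 FPKM in NSD3 pools. It had the largest positive log2 fold change of any member, 0.37 (0.05 to 0.68, limma adjusted p = 0.203), and one of 0.12 without control replicates 4 and 5.

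**Figure D4:**
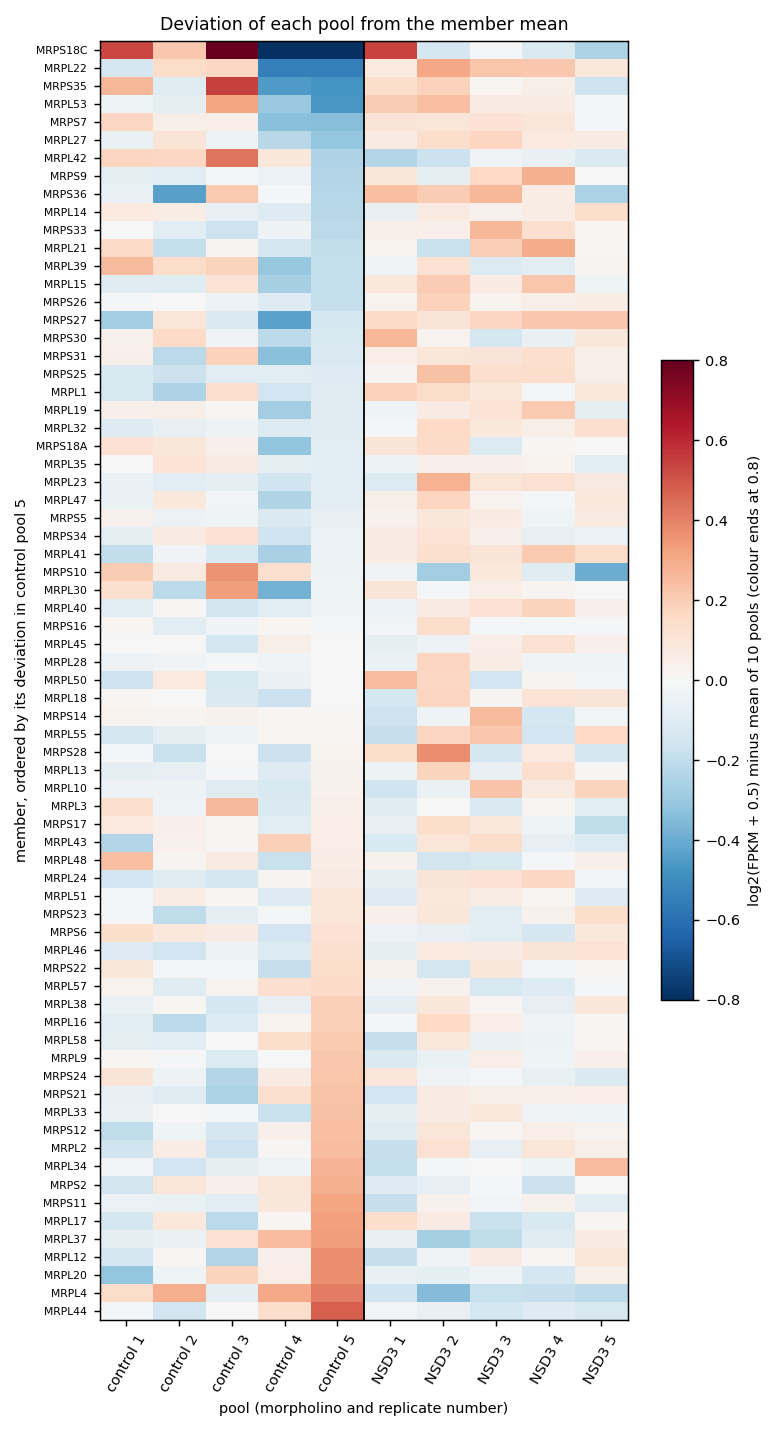
Deviation of each tested member in each pool from its own mean over the 10 pools, as log2(FPKM + 0.5), with members ordered by control replicate 5. MRPS18C, MRPL22 and MRPS35 are low in control replicates 4 and 5 while MRPL44 is high in both, and the NSD3 columns hold fewer strong colours.

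Of the 72 members, 70 had an entry in the RefSeq gene table of GRCg7b, 69 of them on a placed chromosome, while MRPL4 and MRPS28 had none. Of the 69, 18 overlapped another protein-coding gene there. Besides MRPS18C, MRPS25 and MRPS27, these included MRPL24, MRPL37, MRPS2 and MRPS11. Levels of such members are uncertain, since whether strand was used in counting is not given in the sources used here. MRPS11 and MRPL46 were the only members next to each other in that annotation, and they do not overlap. MRPS11 had means of 54.4 ± 6.61 FPKM in the control pools and 50.8 ± 3.23 FPKM in the NSD3 pools, and MRPL46 averaged 58.7 ± 4.71 and 63.4 ± 3.38 FPKM. Their log2 fold changes of -0.09 (-0.27 to 0.09) and 0.11 (-0.03 to 0.26) did not pass the threshold, and that of MRPS11 was 0.01 without control replicates 4 and 5.

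Further genes of mitochondrial translation were looked at as lists. Of the 4 proteins of the mitochondrial ribosome that carry other symbols (AURKAIP1, CHCHD1, DAP3 and PTCD3), 0 were called by limma. At an unadjusted limma p under 0.05 there was 1 (25%, against 18.1% of all genes). The median log2 fold change was 0.114, or 0.022 without control replicates 4 and 5. AURKAIP1 averaged 39.3 ± 3.64 and 44.6 ± 2.70 FPKM (0.18, limma adjusted p = 0.231), and DAP3, a GTP-binding protein of the small subunit, averaged 23.5 ± 1.72 and 23.3 ± 1.40 FPKM.

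Among 20 genes of mitoribosome assembly and rRNA modification, 1 rose, 0 fell and 19 did not pass the threshold, with a median of 0.137 and 16 of 20 above 0. At an unadjusted limma p under 0.05 there were 9 (45%), of which 8 were higher and 1 lower with the NSD3 morpholino. The shares of all genes were 18.1%, 9.78% and 8.29% in the same order, and 1.5% were called higher by adjusted p. The gene called was RCC1L, an RCC1-domain assembly factor. It stood at 10.8, 11.4, 11.2, 8.72 and 8.84 FPKM in controls and 14.6, 14.1, 14.7, 12.3 and 12.8 FPKM in NSD3 pools. All NSD3 pools stood above all controls, and the log2 fold change was 0.41 (limma adjusted p = 0.049). That call ended in 14 of 20 alternatives, with an adjusted p up to 0.125, including 9 of the 10 that left out 1 library, where control replicate 3 was the exception. The authors' deposited table gives RCC1L a log2 fold change of 0.43 (adjusted p = 0.00474).

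DDX28, a helicase of large-subunit assembly, averaged 28.8 ± 0.812 and 33.6 ± 1.64 FPKM (0.22, limma adjusted p = 0.0677). ERAL1, the chaperone of the small-subunit rRNA, averaged 27.7 ± 0.941 and 32.5 ± 2.09 FPKM (0.22, limma adjusted p = 0.0822). In both genes the groups did not overlap. MRM1, a methyltransferase of the large-subunit rRNA, averaged 19.1 ± 1.84 and 23.4 ± 2.09 FPKM (0.29, limma adjusted p = 0.11), with overlap. TFB1M, a dimethyltransferase of the small-subunit rRNA, was the only gene of the list whose NSD3 pools all lay below the controls, at 9.65 ± 0.445 and 8.33 ± 0.991 FPKM (-0.21, limma adjusted p = 0.259). Its margin was narrow, with 9.18 FPKM in control replicate 3 and 9.16 FPKM in NSD3 replicate 2.

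No gene passed the threshold among 9 mitochondrial translation factors, whose median was 0.167 (0.047 without control replicates 4 and 5). Of the 9, 4 (44.4%) had an unadjusted limma p under 0.05, where 18.1% of all genes did. MTFMT, which formylates the initiator methionyl-tRNA, averaged 27.2 ± 1.20 and 31.8 ± 2.19 FPKM (0.22, limma adjusted p = 0.104). PTRH2, a peptidyl-tRNA hydrolase, averaged 91.9 ± 4.36 and 103 ± 3.20 FPKM (0.17, limma adjusted p = 0.118), and the elongation factor GFM1 averaged 26.2 ± 2.43 and 29.4 ± 0.557 FPKM (0.17, limma adjusted p = 0.219). A further list of 19 genes for charging the tRNAs of this ribosome held mitochondrial aminoacyl-tRNA synthetases together with GATB, GATC and QRSL1. The latter encode amidotransferase subunits and not synthetases. The list had a median of 0.022, with 0 called by limma and 0 at an unadjusted limma p under 0.05 (18.1% of all genes). That median was -0.015 without control replicates 4 and 5 and -0.016 with FPKM rescaled to the same total. The smallest adjusted p there was 0.395, for HARS2 at 8.80 ± 1.67 and 10.2 ± 1.06 FPKM, and PARS2 had a log2 fold change of 0.12 (limma adjusted p = 0.444).

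The transcripts that this ribosome translates were also measured. All 13 protein-coding genes of the mitochondrial genome had a positive log2 fold change, from 0.12 to 0.28 with a median of 0.199. None passed limma's adjusted threshold, while 8 (61.5%) were under 0.05 without adjustment, where 18.1% of all genes were. Without control replicates 4 and 5 the median was 0.111 and 12 of 13 were above 0. ND1, a subunit of complex I, had means of 9458 ± 440 FPKM in the control pools and 10792 ± 586 FPKM in the NSD3 pools without overlap (0.19, limma adjusted p = 0.129), while ND4 (0.26, limma adjusted p = 0.175) and ATP8 (0.28, limma adjusted p = 0.183) overlapped. The margin in ND1 was narrow, from 10007 FPKM in control replicate 2 to 10038 FPKM in NSD3 replicate 2. The 13 genes are read from shared precursor transcripts and are not independent of each other. Together they made up 18.6 to 23.5% of all FPKM in controls and 22.1 to 24.7% with the NSD3 morpholino. This share counts in the library total, and with FPKM rescaled to the same total the median of the ribosomal protein members was 0.017. With FPKM rescaled by median ratios that median stayed at 0.063. The part of this share in the differences of other genes was not tested.

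The 72 nuclear genes of oxidative phosphorylation were close to the members in their figures, with a median of 0.050, 47 of 72 above 0 and 0 called by limma. At an unadjusted limma p under 0.05 there were 15 (20.8%), near the 18.1% of all genes. With FPKM rescaled to the same total the median of these 72 was 0.004. NDUFV3, a complex I subunit, had the smallest limma adjusted p of that list, 0.0719, at 13.6 ± 1.03 and 16.4 ± 0.443 FPKM. NDUFA4 had a log2 fold change of 0.23 (limma adjusted p = 0.122) and UQCR11 one of 0.22 (limma adjusted p = 0.139). Cytosolic ribosomal proteins had a median of -0.057, with 10 of 65 above 0. Of the 65, 0 rose and 3 fell, where 1.5% of all genes rose and 1.02% fell. The 3 were RPL10A, at 374 ± 43.1 and 274 ± 7.08 FPKM (-0.44, limma adjusted p = 0.00887), RPL3 (-0.32, limma adjusted p = 0.0174) and RPL12 (-0.35, limma adjusted p = 0.0366). Without control replicates 4 and 5 the median of the cytosolic list was 0.010 and that of the mitochondrial members 0.060. The difference between these lists was not tested. The call of RPL10A held in all 20 alternatives. That of RPL3 ended without NSD3 replicate 3 or 4 (adjusted p up to 0.0583), and that of RPL12 ended in 10 (up to 0.0974), including the omission of control replicates 2 or 4 or of any NSD3 pool.

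**Figure D5:**
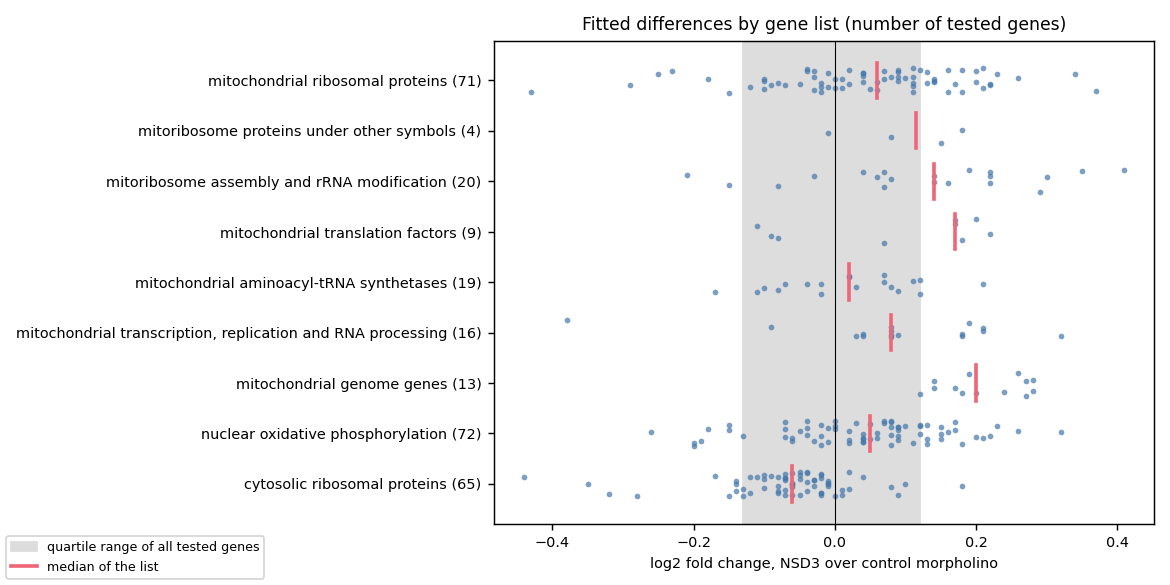
Fitted log2 fold changes (NSD3 over control morpholino) of the tested genes in each list, with the median of the list as a bar and the range between the quartiles of all tested genes shaded. The median is 0.063 for the mitochondrial ribosomal proteins, 0.199 for the genes of the mitochondrial genome and -0.057 for the cytosolic ribosomal proteins.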

How the data were processed

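The authors deposited FPKM values for 19168 genes in 10 libraries, and a second table named as differentially expressed genes. It holds, for 674 genes, the authors' own log2 fold change, adjusted p-value and mean count. The submitters' processing notes name build GRCg6a and the tools STAR 2.5.3a, Trimmomatic 0.32 and DESeq2 1.28.1. What each tool did, how reads were counted and whether strand was used is not given in the sources used here. Groups and replicate numbers came from the sample titles, and the replicates are separate pools of embryos, per the labels.

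FPKM values are not counts, so limma 3.58.1 in R 4.3.3 was fitted with a mean-variance trend to log2(FPKM + 0.5) of the 11935 genes that averaged 1 FPKM or more, with group as the only term. Tests were two-sided, with Benjamini-Hochberg adjustment over all genes tested and a threshold of 0.05. The fit was tested on simulated data. Python 3.11.15 served for tables and figures (numpy 2.4.6, pandas 2.3.3, matplotlib 3.10.9). The added 0.5 FPKM makes fold changes of low genes smaller than they are. Pairs of values joined by "and" give controls first.

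Reads per gene were recovered from the steps in FPKM, and their mean was scaled for depth. The ratio of the authors' mean count to this mean was within 0.5% of its median for 600 of 630 genes with over 20 reads (95.2%). Agreement was thus checked only up to a common factor. The recovered reads were used only to describe depth. All 72 members gave values within 0.15 of whole reads. No 2 libraries of a group had identical values in over 0.142% of genes.

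The members, the gene lists and the rule for naming genes were chosen with earlier results of these data known. Named were the 6 members with the smallest adjusted p in each direction, members without overlap between groups, the 5 highest and 5 lowest, the 3 with the largest coefficient of variation in controls, any in the authors' deposited table, any untested, and up to 3 genes of each other list plus those called. MRPS11 and MRPL46, the overlapping genes RBSN, PTCD2, HELQ and FAM175A, and DAP3 and TFB1M were named after their values were seen. A gene that the rule takes is not reported here. The 20 alternatives changed the pseudocount (0.1 or 1), the filter, the scaling, limma's variance model, a replicate block and the libraries used. Promoter and protein sequences were not used here, and no coordinates are printed, since the RefSeq table is of another build.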

Additional observations from a re-analysis of the deposited data

Results flagged for a closer look

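Of 50 groups of values checked for a pool far from the other 4 of its group, 2 stood out, and chance alone gives about 1 in 20. MRPS18C in NSD3 morpholino replicate 1 stood at 14.4 FPKM, where the other 4 NSD3 pools stood at 8.07 to 9.60 FPKM. MRPS26 in NSD3 morpholino replicate 2 stood at 116 FPKM, where the other 4 stood at 104 to 106 FPKM. The 50 groups did not take in every member. MRPS16, which was not among the 2, stood at 11.5 FPKM in NSD3 morpholino replicate 2 and at 10.2 to 10.3 FPKM in the other NSD3 pools.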

How the results depend on the processing

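Of 20 alternatives, 5 called some member. With a mean FPKM of at least 5 there were 2 higher of 68 tested, MRPL41 (limma adjusted p = 0.0446) and MRPS25 (0.0497). In that setting 167 of 8638 genes were higher. Limma with no trend called 1 member lower of 71, MRPL4 (0.0483), where 87 of 11935 genes were lower. Leaving out 1 library gave 0 to 1 higher (MRPS27 without control replicate 2, MRPL41 without control replicate 5) and 0 to 1 lower (MRPL4 without control replicate 3, limma adjusted p = 0.0357). Of all genes, 140 of 11935 were higher without control replicate 2 and 161 of 11932 without control replicate 5. Without control replicate 3, 151 of 11942 were lower. The members' median was 0.017 with FPKM rescaled to the same total. Over the 23 named tested members, 6 of 457 values passed the threshold and 16 had the other sign. The 1 gene called higher in the lists on mitochondrial translation, RCC1L, became 0 with no filter, with the same total, with no trend, with a robust variance prior and without control replicates 4 and 5, and 0 to 1 on leaving out 1 library. The causes were not tested. Over all genes, the 179 higher and 122 lower became 125 and 87 with no trend, 125 and 173 with the same total, and 69 and 32 without NSD3 morpholino replicate 2.

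The labels do not say whether replicate numbers pair the samples. Correlations of deviations between same-numbered pools were 0.214, -0.0353, -0.128, -0.0647 and 0.34, and those between pools of unlike number ran from -0.319 to 0.255. With so few pools these values cannot decide whether the numbers mark pairs. With a replicate block 0 members were called higher and 0 lower, the median was 0.063, and 97 genes were higher and 62 lower in all. Not every pool correlated best with its own number.

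Low reads limit the 7 members with under 100 reads in some library, and 5 pools per group limit all small differences.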

Other observations

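Among 7 tested regulators of nuclear genes for mitochondria, 0 were called by limma and 1 (14.3%, against 18.1% of all genes) had an unadjusted limma p under 0.05. The median log2 fold change was -0.016, or 0.044 without control replicates 4 and 5. PPRC1, a coactivator related to PGC-1 alpha, had means of 36.9 ± 2.97 FPKM in the control pools and 43.7 ± 1.43 FPKM in the NSD3 pools without overlap (0.24, limma adjusted p = 0.0785). MYC, a transcription factor with many ribosome biogenesis targets, averaged 21.2 ± 4.89 and 19.0 ± 2.34 FPKM (-0.14, limma adjusted p = 0.694), and GABPA, an ETS factor that binds promoters of many nuclear genes for mitochondria, averaged 63.5 ± 16 and 59.2 ± 6.12 FPKM (-0.07, limma adjusted p = 0.841). In MYC and GABPA the groups overlapped.

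Of 16 genes of mitochondrial transcription, replication and RNA processing 0 passed limma's adjusted threshold, with a median of 0.080. Without adjustment 3 (18.8%) were under 0.05, near the 18.1% of all genes. The median was 0.038 without control replicates 4 and 5 and 0.034 with FPKM rescaled to the same total. POLG2, the accessory subunit of the mitochondrial DNA polymerase, averaged 10.3 ± 1.22 and 7.84 ± 1.03 FPKM (-0.38, limma adjusted p = 0.0976) with overlap. SUPV3L1, the helicase of the mitochondrial RNA degradosome, averaged 22.3 ± 1.25 and 25.8 ± 1.14 FPKM without overlap (0.21, limma adjusted p = 0.117). TRMT10C, a subunit of mitochondrial RNase P, averaged 68.1 ± 7.93 and 77.4 ± 4.95 FPKM (0.19, limma adjusted p = 0.255).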
